A study of Homo sapiens with 24 samples.

Results

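Interferon-stimulated genes are the genes that a cell switches on when it senses interferon. The set described here holds 42 of them, found by symbol among the 58735 genes of the deposited count tables. Counts were high enough to test in 34 of the 42 (19952 of all genes), and 8 were too low. The data are messenger RNA libraries of HEK293T cells, a human embryonic kidney line that carries the SV40 large T antigen. Cells were unedited (WT) or lacked MIR210 (MIR210-KO) or MIR210HG (MIR210HG-KO). MIR210 encodes the microRNA miR-210, which cells make in low oxygen, and its host gene MIR210HG gives a long non-coding RNA. Each genotype was kept for 24 h at 21% oxygen (normoxia) or at 1% oxygen (hypoxia), which gives 6 groups of 4 libraries. All groups grew in high-glucose DMEM with fetal bovine serum, and the labels name no interferon treatment or infection. Whether the edited lines are single clones is not given in the labels, nor is it said that libraries of one group came from separate cultures, so p-values measure only the spread between these libraries, which may be technical.

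Type I and type III interferons are proteins that cells secrete after they detect foreign or misplaced nucleic acid. Cytosolic sensors such as RIG-I (DDX58) and MDA5 (IFIH1) start the signal, interferon binds its receptor on the same or a neighbouring cell, and the kinases JAK1 and TYK2 then activate transcription factors, STAT2 among them. STAT2 and IRF9 are parts of the complex ISGF3, which binds a DNA element called the interferon-stimulated response element (ISRE) in the promoters of the genes. The products block viruses at many steps, among them entry (IFITM proteins), translation (IFIT proteins), RNA stability (OAS proteins) and release (BST2), and several of them are the sensors and transcription factors of the pathway itself.

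MIR210HG was measured first, as a check of the labels. It lies on chromosome 11, 565660 to 568457, minus strand, in the GRCh38 build that the files use. Its level in CPM (counts of a gene relative to the scaled library total) was 5.7 ± 0.647 in normoxia WT and 19.1 ± 1.72 in hypoxia WT (mean ± SD, n = 4, as for all CPM means below). All 8 MIR210HG-KO libraries held 0 counts of it, and a count of 0 allows at most 3 counts in a library. In MIR210-KO its level was 3.48 ± 1.07 in normoxia and 20.7 ± 1.46 in hypoxia. The deletion of MIR210 has no check of its own here, because mature microRNAs are not measured by these libraries. Libraries held 25556776 to 37858947 counts. Hypoxia WT 1 and 3, hypoxia MIR210-KO 1 and normoxia MIR210HG-KO 3 stood apart from the other libraries of their groups. They were named without a set threshold. The share of counts in long non-coding RNA genes was 1.62% and 1.55% in hypoxia WT 1 and 3, beside 2.49% and 2.25% in hypoxia WT 2 and 4. Hypoxia WT was thus divided into 1 and 3 against 2 and 4, and which of these is typical cannot be told. Counts of called genes of the set, and many of its values, are given with and without the 4 libraries that stood apart. Not every value is. The other gene lists, promoter groups, neighbours and cell markers described below were not examined without them. Without these 4 libraries hypoxia WT is represented by libraries 2 and 4 alone.

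The response element was searched for in RefSeq promoters (GRCh38.p14, 250 bases before to 50 after an annotated start), of which 35 of the 42 genes had one, and 6 sequences that hold it are shown, from genes among the 7 with the largest log2 values in MIR210-KO against WT in normoxia (the other, PARP9, is given with DTX3L). SP110, with the largest differences in MIR210HG-KO, has no match to it in this window. The core searched was GAAANNGAAA on either strand. It was present in 23 of the 35 genes and in 4.38% of the 27305 genes with a promoter in the table. Capitals mark every base that lies in a match, and overlapping matches run together. On the opposite strand the core reads as its reverse complement.

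BST2, chr19:17405581-17405880, minus strand: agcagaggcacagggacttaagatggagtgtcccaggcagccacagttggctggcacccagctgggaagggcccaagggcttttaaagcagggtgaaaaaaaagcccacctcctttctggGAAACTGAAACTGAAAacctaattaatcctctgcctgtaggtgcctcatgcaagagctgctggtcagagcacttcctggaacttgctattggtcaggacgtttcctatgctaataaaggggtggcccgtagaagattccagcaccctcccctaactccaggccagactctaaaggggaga
LGALS3BP, chr17:78979874-78980173, minus strand: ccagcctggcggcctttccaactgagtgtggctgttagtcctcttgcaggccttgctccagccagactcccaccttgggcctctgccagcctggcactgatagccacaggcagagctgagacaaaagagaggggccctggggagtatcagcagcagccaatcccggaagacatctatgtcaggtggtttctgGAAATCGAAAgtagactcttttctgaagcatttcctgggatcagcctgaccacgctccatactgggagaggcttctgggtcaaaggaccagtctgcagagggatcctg
IFIH1, chr2:162318635-162318934, minus strand: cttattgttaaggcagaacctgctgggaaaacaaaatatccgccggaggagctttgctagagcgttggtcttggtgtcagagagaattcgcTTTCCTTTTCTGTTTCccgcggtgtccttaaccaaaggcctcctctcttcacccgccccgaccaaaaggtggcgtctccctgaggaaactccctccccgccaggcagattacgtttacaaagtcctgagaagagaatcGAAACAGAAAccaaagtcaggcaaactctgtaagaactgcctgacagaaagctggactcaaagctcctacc
SAMD9, chr7:93117930-93118229, minus strand: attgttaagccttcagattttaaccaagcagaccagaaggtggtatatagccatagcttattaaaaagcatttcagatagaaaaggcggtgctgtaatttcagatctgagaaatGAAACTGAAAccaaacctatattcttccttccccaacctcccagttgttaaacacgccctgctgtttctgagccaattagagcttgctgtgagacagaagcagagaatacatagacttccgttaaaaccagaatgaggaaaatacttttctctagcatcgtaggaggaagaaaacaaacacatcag
OAS3, chr12:112938224-112938523, plus strand: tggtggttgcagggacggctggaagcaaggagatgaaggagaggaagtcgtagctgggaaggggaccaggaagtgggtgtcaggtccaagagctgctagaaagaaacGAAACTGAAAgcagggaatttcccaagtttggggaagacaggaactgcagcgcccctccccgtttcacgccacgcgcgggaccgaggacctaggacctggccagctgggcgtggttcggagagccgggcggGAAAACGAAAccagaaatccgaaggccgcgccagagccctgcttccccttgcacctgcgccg
DTX3L, chr3:122564088-122564387, plus strand: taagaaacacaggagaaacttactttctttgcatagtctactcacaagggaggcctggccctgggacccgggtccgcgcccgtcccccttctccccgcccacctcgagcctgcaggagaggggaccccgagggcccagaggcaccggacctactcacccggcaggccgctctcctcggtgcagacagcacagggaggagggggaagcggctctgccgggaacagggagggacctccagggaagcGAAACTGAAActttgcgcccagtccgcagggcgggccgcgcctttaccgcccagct

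The DTX3L match is shared with PARP9, a gene that starts nearby and is read the other way. The site lies at chr3:122564332-122564341, with its first base 6 bases before the DTX3L start and 41 bases before a PARP9 start, in the reading direction of each gene. A longer form, GAAANNGAAACT, was found in 15 of the 35 genes and in 0.322% of all genes with a promoter. The sites of PARP9, and of ISG15 and EPSTI1, which carry the element but were not called between MIR210-KO and WT in normoxia, are shown for comparison, with the match to the longer form (PARP9, ISG15) or to the core (EPSTI1) in capitals.

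PARP9, chr3:122564317-122564358, minus strand: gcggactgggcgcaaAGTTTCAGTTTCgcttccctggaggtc
ISG15, chr1:1013375-1013416, plus strand: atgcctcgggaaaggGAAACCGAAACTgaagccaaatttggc
EPSTI1, chr13:42992267-42992306, minus strand: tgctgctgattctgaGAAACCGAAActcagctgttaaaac

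A second element, the gamma-activated site, was searched as TTCNNNGAA and was found in 11 of the 35 genes and 9.38% of all genes with a promoter. Some matches to the elements overlap, as in BST2. A match is a description of the letters in the window and was not tested for binding.

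Levels of the set were low. The median over the 34 tested genes was 1.07 RPKM, which is CPM per kilobase of gene length, against 2.84 over all tested genes, and 12 of the 34 lay above that median. LGALS3BP was the most abundant at 24.3 RPKM over all libraries, followed by ISG15 (11.8), USP18 (7.19), HERC5 (6.54), STAT2 (6.45) and TRIM25 (6.12). The 8 genes too low to test held these counts over all 24 libraries: 22 for PARP14, 28 for IFI44, 146 for IFIT2, 46 for MX1, 5 for OAS1, 7 for OAS2, 0 for XAF1 and 89 for SP100. The test needed 0.354 CPM in at least 4 libraries. IFIH1 and IFIT3 passed only through the MIR210-KO libraries, where they were highest, so their presence among the tested genes is not independent of that difference.

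In MIR210-KO cells most of the measured interferon-stimulated genes were higher than in WT, at either oxygen level. In bulk RNA, fewer cells of a type and less RNA per cell cannot be told apart. Differences are log2 fold changes (log2 values below) with their standard error, tested with edgeR's quasi-likelihood F test, and a gene was called at a Benjamini-Hochberg adjusted p under 0.05 over all 19952 genes. In normoxia 24 of the 34 were higher, 1 was lower and 9 were not called. Over all tested genes 22.6% were called higher and 21.6% lower, so 70.6% of the tested genes of the set were called higher against a background of 22.6%. IFIH1 and IFIT3 could be tested only because MIR210-KO was high, and without them 22 of 32 were higher in normoxia (68.8%) and 24 of 32 in hypoxia (75%), with medians of 0.84 and 1.01. Over all 34 the median log2 value was 0.93, against 0.01 over all genes, and 15 of the 24 differed at least 2-fold. In hypoxia 25 were higher, 0 were lower and 9 were not called, with a median of 1.01 and 18 at least 2-fold higher. The background there was 28.2% higher and 27.7% lower. At an unadjusted p under 0.05 the count of lower genes in hypoxia was 0 as well. Without the 4 libraries that stood apart the counts were 25 higher and 2 lower in normoxia and 22 higher and 1 lower in hypoxia.

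Called in both oxygen levels were 20 genes, 83.3% of those higher in normoxia and 80% of those higher in hypoxia. The 2 comparisons share no libraries but set the same genotypes against each other. The matching share over all tested genes was not counted. IFIH1 is among the 20, and IFIH1 and IFIT3 are among those higher in normoxia. Both passed the filter only through MIR210-KO, so these shares are not independent of the filter. Shares without them were not counted. IFIT3, ISG20, IRF1 and DDX58 were called higher in normoxia but not in hypoxia. IFI35, STAT2, IRF9, EPSTI1 and SP110 were called higher in hypoxia but not in normoxia. Not called at either oxygen level were PARP10, ISG15, IRF7, TRIM21 and DHX58.

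In MIR210HG-KO cells most of the genes were lower than in MIR210-KO, while against WT the shares called in hypoxia were near those of all tested genes. Against WT in normoxia 3 of the 34 were higher and 11 lower (8.82% and 32.4%), with a median of -0.18 and a background of 15.6% higher and 19.6% lower. In hypoxia 7 were higher and 10 lower (20.6% and 29.4%), with a median of 0.00 and a background of 24.4% higher and 30.2% lower. Called lower at both oxygen levels were 6 genes, 54.5% of those lower in normoxia and 60% of those in hypoxia. Here too the matching share over all tested genes was not counted. Set directly against MIR210-KO, MIR210HG-KO was lower in 24 and higher in 2 in normoxia, with a median of -1.12 and a background of 25.8% lower and 23.4% higher. In hypoxia it was lower in 25 and higher in 0, with a median of -1.26 and a background of 29% lower and 26% higher. Without IFIH1 and IFIT3 the counts lower than in MIR210-KO were 22 and 23 of 32. Of the genes of the set lower than in MIR210-KO, 23 were so at both oxygen levels, again without a matching share over all tested genes. The 23 include IFIH1 and IFIT3. Comparisons of the knockouts with WT share the WT libraries, and those with MIR210-KO share the MIR210-KO libraries. Without the 4 libraries that stood apart, MIR210HG-KO against WT gave 4 higher and 11 lower in normoxia and 8 and 10 in hypoxia. Against MIR210-KO it gave 3 higher and 22 lower in normoxia and 2 and 25 in hypoxia.

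**Figure D1:**
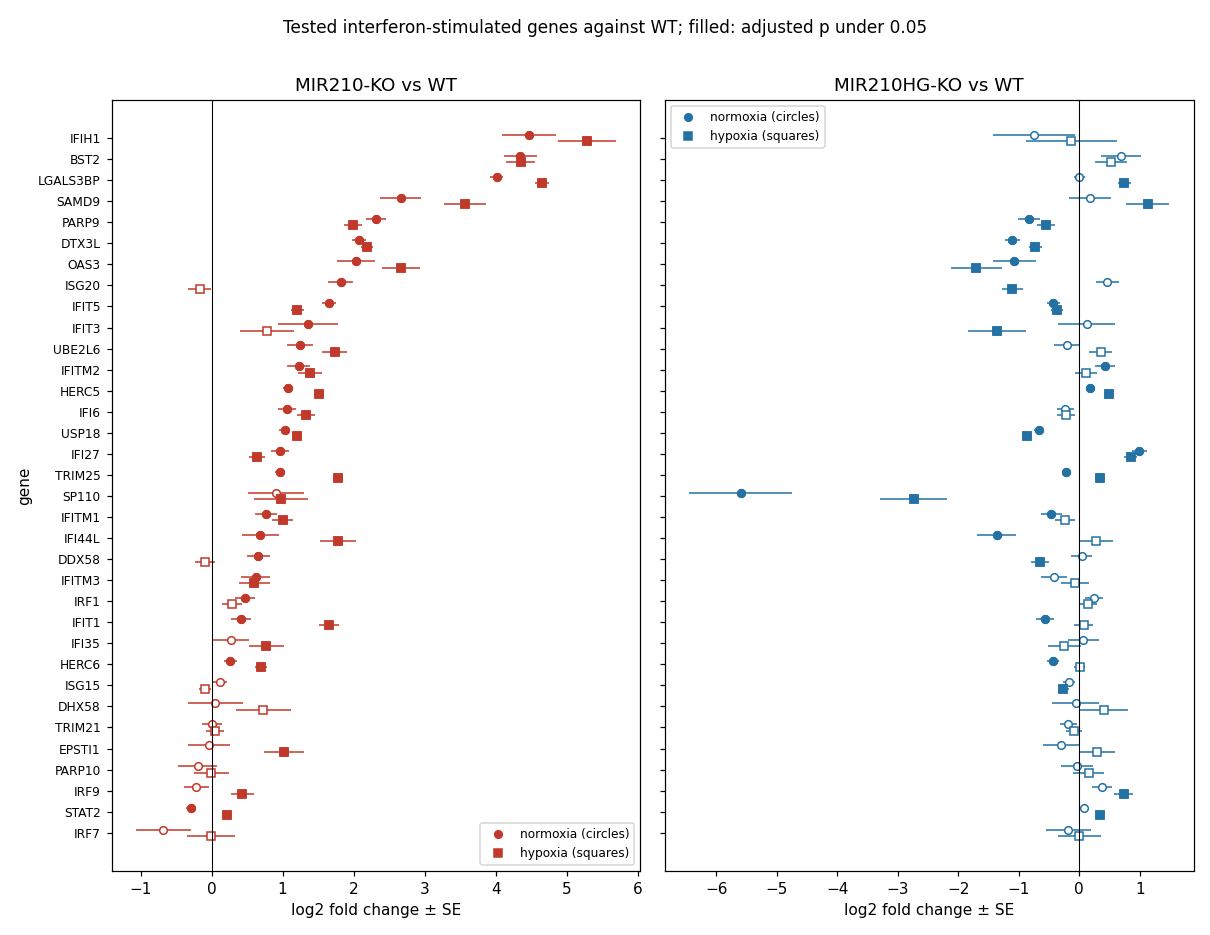
Log2 fold changes of the 34 tested genes against WT, with standard error bars, for MIR210-KO (left) and MIR210HG-KO (right). Circles are normoxia, squares are hypoxia, and filled symbols have an adjusted p under 0.05. In MIR210-KO 24 and 25 genes are called above 0, and in MIR210HG-KO 3 and 7.

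The set holds 3 cytosolic RNA sensors of the RIG-I family, and OAS3, which also binds RNA, is given further on. IFIH1 encodes MDA5, which binds long double-stranded RNA (ENSG00000115267, chromosome 2, 162267079 to 162318703, minus strand). Its levels in normoxia were 0.135, 0.361, 0.0774 and 0.0371 CPM in WT, 3.14, 3.64, 3.09 and 3.68 in MIR210-KO and 0.116, 0.0768, 0.0746 and 0.0819 in MIR210HG-KO. In hypoxia IFIH1 read 0, 0.10, 0.0823 and 0.0808 CPM in WT, 2.79, 2.46, 3.29 and 2.74 in MIR210-KO and 0.111, 0, 0 and 0.142 in MIR210HG-KO. It was at or below 0.361 CPM in every WT and MIR210HG-KO library and lay above all of them in every MIR210-KO library. Because the gene passed the low-count filter only through MIR210-KO, its differences from that group are given as a description with no p-value, and against WT the log2 value was 4.46 ± 0.38 in normoxia and 5.29 ± 0.41 in hypoxia. Between MIR210HG-KO and WT it was not called, with -0.75 and -0.13, and against MIR210-KO the MIR210HG-KO value was -5.21 ± 0.42 in normoxia and -5.42 ± 0.43 in hypoxia. With WT counts this low the size of the fold is imprecise, as the standard errors show.

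DDX58 encodes RIG-I, which binds RNA with a 5′ triphosphate. DDX58 values in normoxia were 2.39, 2.13, 2.32 and 2.74 CPM in WT, 3.11, 4.12, 4.18 and 3.76 in MIR210-KO and 1.62, 2.8, 2.76 and 2.66 in MIR210HG-KO. In hypoxia DDX58 measured 3.39, 4.63, 3.87 and 5.15 CPM in WT, 3.79, 4.31, 4.19 and 3.71 in MIR210-KO and 2.71, 2.38, 2.68 and 3.06 in MIR210HG-KO. In normoxia it was higher in all MIR210-KO libraries than in all WT libraries, by 0.65 ± 0.16 (adjusted p = 0.00124), and in hypoxia those groups overlapped (-0.09). It rose with hypoxia in WT by 0.83 ± 0.16 (adjusted p = 2.75e-05) and was not called in MIR210-KO (0.08) or MIR210HG-KO (0.14). The difference of these oxygen responses from that of WT was -0.75 ± 0.22 (adjusted p = 0.0096) for MIR210-KO and -0.69 ± 0.23 (adjusted p = 0.0253) for MIR210HG-KO. The latter call was lost without any 1 of normoxia WT 2, normoxia MIR210HG-KO 2, 3 or 4, hypoxia WT 4, hypoxia MIR210HG-KO 2 (log2 values -0.65 to -0.59, adjusted p 0.0517 to 0.0589). DHX58, which encodes LGP2, a helicase that modulates both sensors, lay between 0.382 and 0.631 CPM in all group means and was called in no comparison.

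The set holds 4 transcription factors, IRF1, IRF7, IRF9 and STAT2, with log2 values in MIR210-KO against WT between -0.68 (IRF7 in normoxia, not called) and 0.47 (IRF1 in normoxia). STAT2 is a signal transducer of the interferon receptor. STAT2 was measured in normoxia at 36.5, 41, 37.4 and 40.0 CPM in WT, 31.3, 33.1, 30.0 and 31.6 in MIR210-KO and 40.4, 44.2, 40.2 and 38.2 in MIR210HG-KO. In hypoxia STAT2 was measured at 32.3, 40.7, 35.5 and 37.6 CPM in WT, 42, 44.6, 40.3 and 42.6 in MIR210-KO and 46.3, 45.2, 48.1 and 46.3 in MIR210HG-KO. STAT2 was the 1 gene of the set that was lower in MIR210-KO in normoxia, with a log2 value of -0.30 ± 0.06 (adjusted p = 0.000331), and all 4 MIR210-KO libraries lay below all WT libraries. In hypoxia it was higher in MIR210-KO by 0.21 ± 0.06 (adjusted p = 0.00416) with overlapping libraries, and 0.12 (adjusted p = 0.128) without the 4 libraries that stood apart. Its oxygen response differed from that of WT by 0.51 ± 0.09 (adjusted p = 6.3e-05) in MIR210-KO and by 0.27 ± 0.09 (adjusted p = 0.0258) in MIR210HG-KO. The latter was 0.17 (adjusted p = 0.162) without the 4 libraries, and the call was also lost without any 1 of normoxia WT 2 or 4, normoxia MIR210HG-KO 4, hypoxia WT 1 (log2 values 0.22 to 0.25, adjusted p 0.0546 to 0.0738).

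IRF9 is the DNA-binding subunit of ISGF3. IRF9 in normoxia read 1.79, 1.97, 2.36 and 2.04 CPM in WT, 1.94, 1.7, 1.54 and 1.8 in MIR210-KO and 2.12, 3.07, 2.95 and 2.42 in MIR210HG-KO. In hypoxia IRF9 came to 1.56, 2.2, 1.65 and 1.56 CPM in WT, 2.91, 1.95, 2.19 and 2.39 in MIR210-KO and 3.15, 2.87, 2.87 and 2.74 in MIR210HG-KO. In hypoxia MIR210HG-KO lay above WT in all libraries (0.73 ± 0.16, adjusted p = 0.000223). MIR210-KO was called higher than WT in hypoxia (0.43 ± 0.16, adjusted p = 0.0236) with overlapping libraries, but without the 4 libraries that stood apart the value was 0.20 (adjusted p = 0.447). That call was also lost without any 1 of hypoxia WT 1, 3 or 4, hypoxia MIR210-KO 1 (log2 values 0.30 to 0.41, adjusted p 0.0542 to 0.141). The rise with hypoxia in MIR210-KO (0.43 ± 0.17, adjusted p = 0.0292) was 0.30 (adjusted p = 0.152) without the 4 libraries and was lost without any 1 of normoxia MIR210-KO 2 or 3, hypoxia MIR210-KO 1 or 4 (log2 values 0.30 to 0.42, adjusted p 0.0541 to 0.153). The interaction for MIR210-KO (0.65 ± 0.24, adjusted p = 0.0419) was 0.41 (adjusted p = 0.28) without them and was lost without any 1 of normoxia WT 2, 3 or 4, normoxia MIR210-KO 2, 3 or 4, hypoxia WT 1, 3 or 4, hypoxia MIR210-KO 1 or 4 (log2 values 0.51 to 0.66, adjusted p 0.0599 to 0.122).

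IRF1 encodes a factor that interferon gamma induces strongly. IRF1 in normoxia gave 5.83, 5.42, 5.8 and 4.34 CPM in WT, 7.7, 7.71, 8.14 and 6.11 in MIR210-KO and 7.52, 5.8, 5.82 and 6.15 in MIR210HG-KO. In hypoxia IRF1 gave 3.96, 4.46, 5.57 and 4.36 CPM in WT, 6.92, 5.37, 4.25 and 5.82 in MIR210-KO and 5.83, 4.55, 5.75 and 4.09 in MIR210HG-KO. In normoxia it was higher in MIR210-KO than in WT, with no overlap (0.47 ± 0.15, adjusted p = 0.00831), and was not called in hypoxia (0.29). In MIR210-KO it was lower in hypoxia than in normoxia (-0.40 ± 0.14, adjusted p = 0.015) with overlapping libraries, a call that was lost without hypoxia MIR210-KO 3 (log2 value -0.30, adjusted p = 0.0774). IRF7 encodes the factor that amplifies interferon alpha production, and it lies 44.1 kb from MIR210HG. IRF7 in normoxia had 1.25, 2.25, 1.78 and 1.63 CPM in WT, 0.918, 1.37, 0.459 and 1.52 in MIR210-KO and 1.74, 2.04, 0.857 and 1.43 in MIR210HG-KO. In hypoxia IRF7 had 0.57, 2.88, 0.768 and 2.69 CPM in WT, 1.4, 1.5, 1.93 and 2.17 in MIR210-KO and 1.22, 1.99, 2.09 and 1.71 in MIR210HG-KO. The hypoxia WT libraries were far apart, and IRF7 was called in none of the 11 comparisons. Without the 4 libraries that stood apart its difference between MIR210-KO and WT passed the test, at -0.68 (adjusted p = 0.0195) in normoxia and -0.59 (adjusted p = 0.0495) in hypoxia. Its difference between MIR210HG-KO and WT in hypoxia changed from 0.00 to -0.67 (adjusted p = 0.0173) without them. IRF7 was then also called higher in hypoxia in WT (0.70, adjusted p = 0.0133) and in MIR210-KO (0.79, adjusted p = 0.00663). MIR210HG-KO was then above MIR210-KO in normoxia (0.70, adjusted p = 0.0246).

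BST2 and LGALS3BP, which give a membrane and a secreted protein, were next in size. BST2 encodes tetherin, which holds budding virus particles at the cell surface (ENSG00000130303, chromosome 19, 17402939 to 17405648, minus strand). BST2 in normoxia measured 0.303, 0.201, 0.735 and 0.371 CPM in WT, 8.02, 8.2, 9.77 and 6.99 in MIR210-KO and 0.501, 0.499, 0.783 and 0.819 in MIR210HG-KO. In hypoxia BST2 measured 0.600, 0.426, 0.85 and 0.35 CPM in WT, 11.3, 11.5, 11.7 and 10.9 in MIR210-KO and 0.912, 0.559, 0.94 and 0.712 in MIR210HG-KO. Every MIR210-KO library lay above every other library at the same oxygen level. MIR210-KO exceeded WT by 4.35 ± 0.23 (adjusted p = 2.1e-16) in normoxia, a 20.4-fold difference, and by 4.35 ± 0.20 (adjusted p = 3.28e-18) in hypoxia. MIR210HG-KO was not called against WT, with 0.69 and 0.52, although in hypoxia the value was 1.02 (adjusted p = 0.00688) without the 4 libraries that stood apart. Against MIR210-KO the MIR210HG-KO values were -3.66 ± 0.21 in normoxia and -3.83 ± 0.19 in hypoxia.

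LGALS3BP encodes galectin-3-binding protein, a secreted glycoprotein (ENSG00000108679, chromosome 17, 78971238 to 78980109, minus strand). LGALS3BP in normoxia reached 17.8, 18.5, 18.3 and 16.6 CPM in WT, 275, 289, 296 and 291 in MIR210-KO and 21.3, 17.3, 13.1 and 19.6 in MIR210HG-KO. In hypoxia LGALS3BP reached 7.74, 6.68, 7.92 and 6.33 CPM in WT, 196, 164, 175 and 184 in MIR210-KO and 12.3, 11, 12.9 and 11.6 in MIR210HG-KO. The MIR210-KO libraries again lay above all others. The difference from WT was 4.01 ± 0.09 (adjusted p = 3.57e-25) in normoxia and 4.65 ± 0.10 (adjusted p = 1.74e-26) in hypoxia, and for MIR210HG-KO it was 0.00 in normoxia (not called) and 0.74 ± 0.10 (adjusted p = 2.83e-07) in hypoxia. LGALS3BP was lower in hypoxia than in normoxia in every genotype, with log2 values of -1.31 in WT, -0.68 in MIR210-KO and -0.57 in MIR210HG-KO. The fall was smaller in both knockouts than in WT, and the interaction was 0.64 ± 0.13 (adjusted p = 0.000344) for MIR210-KO and 0.74 ± 0.14 (adjusted p = 0.000215) for MIR210HG-KO.

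**Figure D2:**
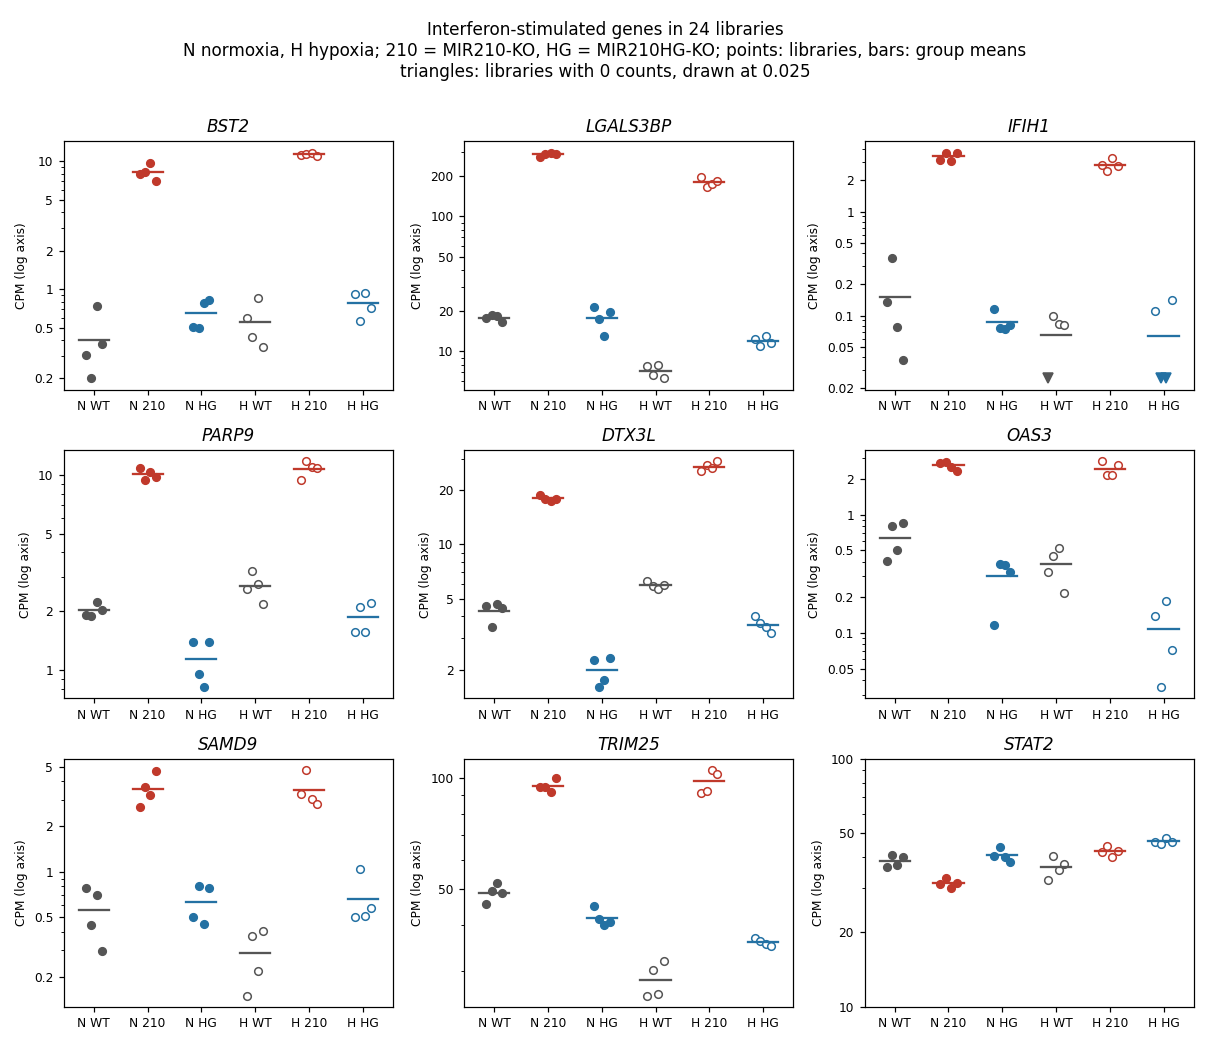
CPM of 9 genes in each of the 24 libraries, on log axes, by genotype and oxygen level. Each point is 1 library, horizontal bars are group means, filled points are normoxia, open points are hypoxia, and triangles at the bottom stand for libraries with 0 counts. BST2, LGALS3BP, IFIH1, PARP9, DTX3L, OAS3, SAMD9 and TRIM25 are higher in all MIR210-KO libraries than in the other groups at the same oxygen level, and STAT2 is not.

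SAMD9 encodes a cytoplasmic protein that restricts poxvirus replication. SAMD9 in normoxia showed 0.775, 0.442, 0.696 and 0.297 CPM in WT, 2.68, 3.64, 3.22 and 4.67 in MIR210-KO and 0.501, 0.807, 0.447 and 0.778 in MIR210HG-KO. In hypoxia SAMD9 showed 0.15, 0.376, 0.219 and 0.404 CPM in WT, 3.3, 4.75, 3.02 and 2.83 in MIR210-KO and 0.497, 1.05, 0.51 and 0.569 in MIR210HG-KO. All MIR210-KO libraries were above all WT and MIR210HG-KO libraries. The difference from WT was 2.66 ± 0.29 (adjusted p = 2.82e-09) in normoxia and 3.56 ± 0.30 (adjusted p = 5.73e-12) in hypoxia. In hypoxia MIR210HG-KO was higher than WT too (1.13 ± 0.36, adjusted p = 0.00763), and the fall with hypoxia in WT was -0.92 ± 0.38 (adjusted p = 0.034). Both of these rest on few libraries, since without the 4 that stood apart they were 0.72 (adjusted p = 0.123) and -0.51 (adjusted p = 0.285). The first was also lost without hypoxia MIR210HG-KO 2 (log2 value 0.84, adjusted p = 0.0562), and the second without any 1 of normoxia WT 1 or 3, hypoxia WT 1 or 3 (log2 values -0.81 to -0.70, adjusted p 0.081 to 0.155).

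OAS3 encodes an oligoadenylate synthetase, which makes a small nucleotide signal on binding double-stranded RNA. OAS3 in normoxia came to 0.404, 0.803, 0.503 and 0.853 CPM in WT, 2.76, 2.79, 2.55 and 2.36 in MIR210-KO and 0.116, 0.384, 0.373 and 0.328 in MIR210HG-KO. In hypoxia OAS3 came to 0.33, 0.451, 0.521 and 0.216 CPM in WT, 2.82, 2.15, 2.16 and 2.61 in MIR210-KO and 0.138, 0.035, 0.188 and 0.0712 in MIR210HG-KO. MIR210-KO lay above WT and MIR210HG-KO below it, with no overlap at either oxygen level. The log2 values against WT were 2.03 ± 0.27 (adjusted p = 1.69e-07) and 2.66 ± 0.27 (adjusted p = 6.2e-10) for MIR210-KO, and -1.07 ± 0.35 (adjusted p = 0.0178) and -1.70 ± 0.42 (adjusted p = 0.000975) for MIR210HG-KO, in normoxia and hypoxia. The normoxia call for MIR210HG-KO was lost without any 1 of normoxia WT 2 or 4, normoxia MIR210HG-KO 1 (log2 values -0.94 to -0.79, adjusted p 0.0654 to 0.092). OAS3 was lower in hypoxia in WT (-0.73 ± 0.32, adjusted p = 0.0474) and in MIR210HG-KO (-1.36 ± 0.46, adjusted p = 0.0137) with overlapping libraries. The WT call was lost without any 1 of normoxia WT 2 or 4, hypoxia WT 1 or 4 (log2 values -0.68 to -0.54, adjusted p 0.0923 to 0.186), and the other without hypoxia MIR210HG-KO 2 (log2 value -1.11, adjusted p = 0.0505). The related OAS1 and OAS2 were among the genes too low to test.

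ISG20 encodes an exonuclease that degrades single-stranded RNA, and it had the largest called interaction of the set for MIR210-KO. ISG20 in normoxia was 1.72, 1.57, 1.62 and 2.04 CPM in WT, 4.87, 6.18, 7.39 and 6.15 in MIR210-KO and 3.01, 2.61, 1.64 and 2.34 in MIR210HG-KO. In hypoxia ISG20 was 4.02, 3.38, 4.00 and 4.04 CPM in WT, 4.56, 2.93, 3.12 and 3.08 in MIR210-KO and 2.1, 1.75, 1.53 and 1.78 in MIR210HG-KO. MIR210-KO was above WT in normoxia (1.82 ± 0.17, adjusted p = 2.67e-10) and not in hypoxia (-0.17), where MIR210HG-KO was below WT (-1.11 ± 0.17, adjusted p = 1.83e-06). In WT, ISG20 was higher in hypoxia than in normoxia (1.15 ± 0.18, adjusted p = 1.16e-06), and in MIR210-KO it was lower (-0.84 ± 0.16, adjusted p = 3.05e-05). The interactions were -1.99 ± 0.24 (adjusted p = 1.27e-07) for MIR210-KO and -1.57 ± 0.25 (adjusted p = 3.19e-05) for MIR210HG-KO.

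The IFIT proteins bind viral RNA and block its translation. IFIT1 in normoxia held 5.22, 5.62, 5.61 and 4.78 CPM in WT, 8.16, 6.38, 7.81 and 5.91 in MIR210-KO and 2.78, 4.34, 4.03 and 3.11 in MIR210HG-KO. In hypoxia IFIT1 held 2.31, 1.98, 2.99 and 2.48 CPM in WT, 7.23, 7.57, 6.61 and 9.15 in MIR210-KO and 2.57, 2.41, 2.66 and 2.6 in MIR210HG-KO. It was higher in MIR210-KO in all libraries at both oxygen levels, by 0.41 ± 0.14 (adjusted p = 0.0138) in normoxia and 1.65 ± 0.14 (adjusted p = 1.18e-11) in hypoxia, and the normoxia call was lost without normoxia MIR210-KO 1 (log2 value 0.34, adjusted p = 0.0722). IFIT1 fell with hypoxia in WT (-1.12 ± 0.15, adjusted p = 7.09e-08) and was not called in MIR210-KO (0.11), and the interaction was 1.23 ± 0.20 (adjusted p = 1.6e-05). The interaction for MIR210HG-KO was 0.64 ± 0.21 (adjusted p = 0.0272), and was lost without any 1 of normoxia WT 2 or 3, normoxia MIR210HG-KO 1 or 4, hypoxia WT 2, hypoxia MIR210HG-KO 3 (log2 values 0.53 to 0.62, adjusted p 0.0563 to 0.0781). IFIT3 in normoxia held 0.202, 0.0803, 0.193 and 0.445 CPM in WT, 0.565, 0.767, 0.543 and 0.519 in MIR210-KO and 0.309, 0.346, 0.112 and 0.246 in MIR210HG-KO. In hypoxia IFIT3 held 0.45, 0.275, 0.274 and 0.216 CPM in WT, 0.399, 0.493, 0.831 and 0.377 in MIR210-KO and 0.0829, 0.14, 0.161 and 0.0712 in MIR210HG-KO. These counts were low, and IFIT3 too passed the filter only through MIR210-KO. As a description with no p-value, MIR210-KO against WT stood at 1.35 ± 0.42 in normoxia and 0.78 in hypoxia. In hypoxia MIR210HG-KO was below WT (-1.36 ± 0.48, adjusted p = 0.0168), a call that became -1.07 (adjusted p = 0.134) without the 4 libraries that stood apart and was lost without any 1 of hypoxia WT 1, hypoxia MIR210HG-KO 1 or 4 (log2 values -1.21 to -1.12, adjusted p 0.0503 to 0.0689). In normoxia the MIR210HG-KO value against MIR210-KO was -1.23 ± 0.42. IFIT1 and IFIT3 lie within LIPA, a gene on the opposite strand with many more counts, and the strand setting of the counting is not given in the sources used here, so their counts are uncertain. LIPA itself was higher in MIR210-KO by 0.19 ± 0.06 in normoxia and 0.45 ± 0.06 in hypoxia. IFIT5, which overlaps no other gene, had group means from 9.25 to 43 CPM and was higher in MIR210-KO by 1.65 ± 0.10 (adjusted p = 2.71e-15) and 1.2 ± 0.09 (adjusted p = 6.42e-13), with no overlap.

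The IFITM proteins sit in membranes and block the fusion of enveloped viruses. Their genes lie on chromosome 11, 238 kb (IFITM3) and 250 kb (IFITM1 and IFITM2) from MIR210HG. IFITM1 in normoxia counted 3.81, 4.17, 3.4 and 4.86 CPM in WT, 6.46, 6.34, 8.1 and 6.79 in MIR210-KO and 2.97, 2.38, 3.28 and 3.15 in MIR210HG-KO. In hypoxia IFITM1 counted 4.35, 3.93, 5.46 and 3.07 CPM in WT, 10.5, 8.53, 7.74 and 6.86 in MIR210-KO and 3.92, 2.87, 3.41 and 4.02 in MIR210HG-KO. All MIR210-KO libraries exceeded all others, by 0.77 ± 0.16 (adjusted p = 0.000154) and 1.00 ± 0.15 (adjusted p = 7.71e-07) over WT in normoxia and hypoxia. MIR210HG-KO was lower than WT in normoxia (-0.46 ± 0.17, adjusted p = 0.0349), a call that was lost without any 1 of normoxia WT 1, 2 or 4, normoxia MIR210HG-KO 1, 2 or 4 (log2 values -0.49 to -0.35, adjusted p 0.0521 to 0.156).

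IFITM2 in normoxia counted 5.19, 4.46, 4.25 and 5.63 CPM in WT, 11.4, 10.3, 13.6 and 10.4 in MIR210-KO and 7.33, 6.07, 6.75 and 6.06 in MIR210HG-KO. In hypoxia IFITM2 counted 3.75, 2.35, 2.6 and 2.29 CPM in WT, 8.91, 6.85, 5.75 and 7.01 in MIR210-KO and 2.32, 2.31, 4.27 and 2.85 in MIR210HG-KO. MIR210-KO was again above WT in all libraries, by 1.23 ± 0.16 (adjusted p = 1.47e-07) and 1.38 ± 0.17 (adjusted p = 1.95e-08), in normoxia and hypoxia. IFITM2 was lower in hypoxia than in normoxia in every genotype with no overlap, with log2 values of -0.84, -0.68 and -1.15 in WT, MIR210-KO and MIR210HG-KO. MIR210HG-KO was higher than WT in normoxia (0.42 ± 0.17, adjusted p = 0.048), which was lost without any 1 of normoxia WT 1, 2 or 3, normoxia MIR210HG-KO 1, 2, 3 or 4 (log2 values 0.37 to 0.47, adjusted p 0.0504 to 0.128). IFITM3 in normoxia counted 2.43, 1.85, 2.17 and 2.11 CPM in WT, 3.36, 3.23, 3.34 and 3.28 in MIR210-KO and 1.62, 2.00, 1.23 and 1.56 in MIR210HG-KO. In hypoxia IFITM3 counted 1.17, 0.826, 1.81 and 0.727 CPM in WT, 1.94, 1.17, 1.89 and 1.89 in MIR210-KO and 1.19, 0.979, 1.07 and 1.03 in MIR210HG-KO. IFITM3 was higher in MIR210-KO by 0.62 ± 0.20 (adjusted p = 0.0124) in normoxia without overlap. In hypoxia it was higher by 0.60 ± 0.22 (adjusted p = 0.0196) with overlap, and by 1.06 (adjusted p = 0.000434) without the 4 libraries that stood apart. The hypoxia value was 0.92 (adjusted p = 0.000439) without hypoxia WT 3, and the call was lost without any 1 of hypoxia WT 2 or 4, hypoxia MIR210-KO 1, 3 or 4 (log2 values 0.43 to 0.55, adjusted p 0.0513 to 0.104). IFITM3 was lower in hypoxia in WT (-0.92 ± 0.22, adjusted p = 0.000477), in MIR210-KO (-0.95 ± 0.20, adjusted p = 0.000178) and in MIR210HG-KO (-0.58 ± 0.23, adjusted p = 0.0349). The WT value was -1.46 (adjusted p = 9.43e-07) without the 4 libraries, and the call in MIR210HG-KO was lost without any 1 of normoxia MIR210HG-KO 1, 2 or 4, hypoxia MIR210HG-KO 2, 3 or 4 (log2 values -0.59 to -0.45, adjusted p 0.0545 to 0.145). IFITM1 and IFITM2 overlap each other on the same strand, and IFITM3 overlaps 5 genes without an established name, so reads may be split between them.

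Several members are named for their induction by interferon. IFI27 encodes a small mitochondrial protein. IFI27 in normoxia amounted to 3.17, 3.01, 3.4 and 3.11 CPM in WT, 6.64, 7.15, 5.89 and 5.11 in MIR210-KO and 5.52, 6.61, 6.37 and 6.76 in MIR210HG-KO. In hypoxia IFI27 amounted to 4.41, 4.33, 5.32 and 5.12 CPM in WT, 7.8, 8.14, 7.64 and 6.29 in MIR210-KO and 8.79, 8.99, 9.29 and 7.44 in MIR210HG-KO. Both knockouts lay above WT in all libraries, as they did for HERC5, by 0.97 ± 0.12 (adjusted p = 9.97e-08) and 0.64 ± 0.11 (adjusted p = 9.65e-06) in MIR210-KO, and by 0.99 ± 0.12 (adjusted p = 1.06e-07) and 0.85 ± 0.11 (adjusted p = 9.12e-08) in MIR210HG-KO. For IFI27 the knockouts were not called against each other, with 0.03 in normoxia and 0.21 in hypoxia. The HERC5 value in MIR210HG-KO against WT in normoxia was only 0.18. That call was lost without any 1 of normoxia WT 1, 2 or 4, normoxia MIR210HG-KO 2, 3 or 4 (log2 values 0.17 to 0.20, adjusted p 0.0508 to 0.117).

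IFI44L encodes a protein that dampens the interferon response by feedback. IFI44L in normoxia amounted to 0.708, 0.923, 1.16 and 1.15 CPM in WT, 1.31, 1.62, 1.46 and 1.96 in MIR210-KO and 0.424, 0.23, 0.447 and 0.41 in MIR210HG-KO. In hypoxia IFI44L amounted to 0.69, 0.476, 0.685 and 0.781 CPM in WT, 2.19, 3.11, 2.09 and 1.6 in MIR210-KO and 1.19, 0.839, 0.564 and 0.569 in MIR210HG-KO. In normoxia the libraries of the 3 genotypes formed 3 separate ranges, with MIR210-KO above WT (0.69 ± 0.26, adjusted p = 0.0318) and MIR210HG-KO below it (-1.37 ± 0.32, adjusted p = 0.000946). The first of these was lost without any 1 of normoxia WT 1 or 2, normoxia MIR210-KO 2 or 4 (log2 values 0.56 to 0.68, adjusted p 0.0557 to 0.113). In hypoxia MIR210-KO was higher by 1.78 ± 0.25 (adjusted p = 3.42e-07), and MIR210HG-KO was not called (0.28). IFI44L rose with hypoxia in MIR210HG-KO (1.06 ± 0.32, adjusted p = 0.00549). The interactions were 1.09 ± 0.36 (adjusted p = 0.0239) for MIR210-KO and 1.64 ± 0.42 (adjusted p = 0.00479) for MIR210HG-KO, and the former was lost without any 1 of normoxia WT 3 or 4, normoxia MIR210-KO 1, hypoxia WT 2, hypoxia MIR210-KO 2 (log2 values 0.89 to 1.00, adjusted p 0.0537 to 0.0727).

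IFI35 encodes a protein that binds the STAT partner NMI. IFI35 in normoxia amounted to 1.52, 1.08, 0.928 and 1.00 CPM in WT, 1.73, 0.969, 1.34 and 1.44 in MIR210-KO and 1.23, 0.845, 1.34 and 1.35 in MIR210HG-KO. In hypoxia IFI35 amounted to 0.57, 0.726, 0.85 and 1.02 CPM in WT, 1.34, 0.934, 1.56 and 1.64 in MIR210-KO and 0.442, 0.699, 0.832 and 0.712 in MIR210HG-KO. It was not called between MIR210-KO and WT in normoxia (0.27) and was higher in hypoxia (0.77 ± 0.25, adjusted p = 0.0085) with overlapping libraries, which became 0.64 (adjusted p = 0.0894) without the 4 libraries that stood apart. MIR210HG-KO was below MIR210-KO in hypoxia in all libraries (-1.02 ± 0.26, adjusted p = 0.00113), and IFI35 fell with hypoxia in MIR210HG-KO (-0.83 ± 0.27, adjusted p = 0.00921). IFI6, which encodes a protein of the endoplasmic reticulum that restricts flaviviruses, was higher in MIR210-KO by 1.06 ± 0.13 (adjusted p = 4.72e-08) and 1.33 ± 0.13 (adjusted p = 1.78e-10) with no overlap, and was not called between MIR210HG-KO and WT.

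ISG15 is a ubiquitin-like protein that is attached to other proteins by UBE2L6 (the conjugating enzyme) and HERC5 (the ligase) and removed by USP18, which also holds back the interferon receptor. The gene for ISG15 itself was not called in MIR210-KO, with 0.12 in normoxia and -0.09 in hypoxia, although it carries the response element shown above. Its group means lay between 7.98 and 14.3 CPM, and the level in hypoxia exceeded that in normoxia in WT (0.67 ± 0.09, adjusted p = 1.24e-07), MIR210-KO (0.47 ± 0.09, adjusted p = 5.61e-05) and MIR210HG-KO (0.58 ± 0.09, adjusted p = 3.31e-06). The genes named here for its attachment and removal, UBE2L6, HERC5 and USP18, were higher in MIR210-KO. UBE2L6 was higher by 1.25 ± 0.19 (adjusted p = 1.64e-06) in normoxia and 1.73 ± 0.18 (adjusted p = 7.2e-10) in hypoxia. HERC5 was higher by 1.08 ± 0.07 (adjusted p = 2.26e-14) and 1.51 ± 0.07 (adjusted p = 1.83e-18), from 21.1 CPM in normoxia WT to 52.8 in hypoxia MIR210-KO. Its relative HERC6 was higher by 0.26 ± 0.09 (adjusted p = 0.02) and 0.69 ± 0.09 (adjusted p = 3.79e-08), and the normoxia call was lost without normoxia MIR210-KO 3 (log2 value 0.23, adjusted p = 0.0574).

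USP18 in normoxia lay at 15.5, 15.3, 14.2 and 14.2 CPM in WT, 30.4, 30.9, 30.9 and 28.2 in MIR210-KO and 9.64, 9.41, 8.84 and 9.38 in MIR210HG-KO. In hypoxia USP18 lay at 10.3, 8.64, 10.2 and 9.99 CPM in WT, 24, 20.5, 21.9 and 23.7 in MIR210-KO and 5.78, 5.17, 5.32 and 5.05 in MIR210HG-KO. Its 3 genotypes did not overlap at either oxygen level, with MIR210-KO highest and MIR210HG-KO lowest. Against WT, MIR210-KO was higher by 1.03 ± 0.07 (adjusted p = 1.65e-13) and 1.21 ± 0.07 (adjusted p = 2.12e-15), and the MIR210HG-KO values were -0.67 ± 0.08 (adjusted p = 2.33e-08) and -0.87 ± 0.08 (adjusted p = 9.12e-11). TRIM25 encodes the ubiquitin ligase that activates RIG-I. TRIM25 in normoxia lay at 45.5, 49.5, 52 and 48.9 CPM in WT, 95, 94.5, 91.8 and 100.04 in MIR210-KO and 45, 41.6, 39.9 and 40.8 in MIR210HG-KO. In hypoxia TRIM25 lay at 25.8, 30.2, 26.1 and 31.9 CPM in WT, 91.3, 92.4, 105 and 103 in MIR210-KO and 37, 36.2, 35.5 and 35.2 in MIR210HG-KO. MIR210-KO was higher by 0.96 ± 0.06 (adjusted p = 7.52e-14) in normoxia and 1.78 ± 0.07 (adjusted p = 1.56e-20) in hypoxia, without overlap. MIR210HG-KO was lower than WT in normoxia (-0.23 ± 0.07, adjusted p = 0.00698) and higher in hypoxia (0.34 ± 0.07, adjusted p = 6.85e-05). The latter was 0.21 (adjusted p = 0.00323) without the 4 libraries that stood apart. TRIM25 fell with hypoxia in WT (-0.78 ± 0.07, adjusted p = 8.61e-12) and was not called in MIR210-KO (0.04), and the interaction was 0.82 ± 0.09 (adjusted p = 3.88e-08). TRIM25 overlaps DGKE, which was higher in MIR210-KO by 0.55 ± 0.07 in normoxia and 0.38 ± 0.07 in hypoxia.

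PARP9 and DTX3L encode the partners of a complex that modifies histones and antiviral targets, and their genes lie head to head on chromosome 3 and overlap. PARP9 in normoxia ran to 1.92, 1.89, 2.24 and 2.04 CPM in WT, 10.9, 9.37, 10.3 and 9.75 in MIR210-KO and 1.39, 0.96, 0.82 and 1.39 in MIR210HG-KO. In hypoxia PARP9 ran to 2.61, 3.2, 2.77 and 2.18 CPM in WT, 9.4, 11.7, 11 and 10.9 in MIR210-KO and 1.58, 2.1, 1.56 and 2.21 in MIR210HG-KO. The MIR210-KO libraries were highest, and MIR210HG-KO was below WT without overlap in normoxia. Against WT the log2 values of PARP9 were 2.32 ± 0.14 (adjusted p = 7.27e-15) and 1.99 ± 0.13 (adjusted p = 1.68e-14) in MIR210-KO, and -0.83 ± 0.18 (adjusted p = 0.000495) and -0.55 ± 0.15 (adjusted p = 0.00243) in MIR210HG-KO, the last with overlapping libraries. DTX3L in normoxia ran to 4.55, 3.49, 4.68 and 4.41 CPM in WT, 18.7, 17.9, 17.5 and 18 in MIR210-KO and 2.28, 1.61, 1.75 and 2.34 in MIR210HG-KO. In hypoxia DTX3L ran to 6.27, 5.91, 5.65 and 5.95 CPM in WT, 25.5, 27.5, 26.6 and 29 in MIR210-KO and 3.98, 3.67, 3.49 and 3.2 in MIR210HG-KO. The order of the genotypes was the same, without overlap at either oxygen level. Against WT the log2 values of DTX3L were 2.07 ± 0.10 (adjusted p = 9.61e-18) and 2.19 ± 0.09 (adjusted p = 1.19e-19) in MIR210-KO, and -1.11 ± 0.12 (adjusted p = 9.83e-09) and -0.72 ± 0.10 (adjusted p = 3.2e-07) in MIR210HG-KO. DTX3L rose with hypoxia in WT, MIR210-KO and MIR210HG-KO, by 0.47, 0.59 and 0.85. PARP10, another ADP-ribosyltransferase, was called in no comparison, with log2 values of -0.20 and 0.00 in MIR210-KO.

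SP110 encodes a protein of nuclear bodies, and the gene lies on chromosome 2. SP110 in normoxia stood at 0.539, 1.00, 0.735 and 0.408 CPM in WT, 1.66, 1.33, 0.96 and 1.04 in MIR210-KO and 0, 0, 0 and 0.041 in MIR210HG-KO. In hypoxia SP110 stood at 0.87, 0.35, 0.658 and 0.512 CPM in WT, 0.94, 1.69, 1.23 and 0.786 in MIR210-KO and 0, 0, 0.107 and 0.249 in MIR210HG-KO. All MIR210HG-KO libraries lay below all others of their oxygen level. The 4 normoxia MIR210HG-KO libraries together held 1 count against 71 in WT, a ratio of CPM of 68.2 with a 95% counting interval from 11.9 to 2732. In hypoxia they held 11 counts against 86 in WT, with a log2 value of -2.74 ± 0.55 (adjusted p = 9.7e-05). MIR210-KO was not called against WT in normoxia (0.91) and was higher in hypoxia by 0.97 ± 0.38 (adjusted p = 0.03) with overlap, and by 1.52 (adjusted p = 0.00589) without the 4 libraries that stood apart. The hypoxia call was lost without any 1 of hypoxia WT 2 or 4, hypoxia MIR210-KO 2 or 3 (log2 values 0.73 to 0.95, adjusted p 0.0561 to 0.145).

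EPSTI1 encodes a protein first described at the border of epithelium and stroma. EPSTI1 in normoxia stood at 0.809, 1.36, 1.35 and 0.778 CPM in WT, 0.954, 0.646, 1.17 and 1.4 in MIR210-KO and 0.694, 1.08, 0.746 and 0.942 in MIR210HG-KO. In hypoxia EPSTI1 stood at 1.05, 0.476, 0.74 and 0.512 CPM in WT, 1.4, 0.934, 1.96 and 1.35 in MIR210-KO and 0.83, 0.734, 1.05 and 0.747 in MIR210HG-KO. All groups overlapped. MIR210-KO was called higher than WT in hypoxia (1.02 ± 0.28, adjusted p = 0.00233) but not in normoxia (-0.04), and MIR210HG-KO was lower than MIR210-KO in hypoxia (-0.72 ± 0.28, adjusted p = 0.026). The latter was lost without any 1 of hypoxia MIR210-KO 3, hypoxia MIR210HG-KO 1, 2 or 4 (log2 values -0.70 to -0.53, adjusted p 0.0574 to 0.13). The interaction for MIR210-KO (1.06 ± 0.40, adjusted p = 0.0494) was lost without any 1 of normoxia WT 2 or 3, normoxia MIR210-KO 1, 2 or 3, hypoxia WT 2, 3 or 4, hypoxia MIR210-KO 1, 3 or 4 (log2 values 0.86 to 1.11, adjusted p 0.0575 to 0.127). TRIM21, a cytosolic antibody receptor and ubiquitin ligase, was called in no comparison, with log2 values of 0.00 and 0.04 in MIR210-KO and group means from 4.93 to 5.81 CPM.

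In no genotype was the set mostly higher or mostly lower in hypoxia. In WT 7 of the 34 genes were higher in hypoxia and 10 lower, with a median of -0.19 and a background of 29.6% higher and 30.7% lower. The genes that fell in WT included LGALS3BP, IFIT1, IFITM3, IFITM2 and TRIM25, and those that rose included ISG20, DDX58, ISG15, IFI27 and IFIT5. In MIR210-KO 8 were higher and 6 lower, with a median of 0.08 and a background of 29.3% and 29.5%. In MIR210HG-KO 8 were higher and 9 lower, with a median of 0.09 and a background of 25.7% and 28.3%. The shares of the set, 20.6% and 29.4% in WT, 23.5% and 17.6% in MIR210-KO, and 23.5% and 26.5% in MIR210HG-KO, all lie below these backgrounds. Each oxygen level was deposited as a table of its own, so oxygen level and table cannot be told apart. Without the 4 libraries that stood apart the counts were 8 higher and 9 lower in WT, 7 and 6 in MIR210-KO and 8 and 12 in MIR210HG-KO.

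The response to hypoxia differed from that of WT in 12 genes for MIR210-KO, 9 higher and 3 lower, beside a background of 12.5% higher and 14% lower. For MIR210HG-KO it differed in 9 genes, 7 higher and 2 lower, beside a background of 10.2% higher and 12.2% lower. The 2 tests share the WT libraries. IFI44L, IFIT1, STAT2, HERC5, HERC6, TRIM25 and LGALS3BP had a higher response in each knockout than in WT, and ISG20 and DDX58 a lower one. For MIR210-KO the others were IRF9 and EPSTI1 (higher) and IFIT5 (-0.45 ± 0.13, adjusted p = 0.0109). For HERC5 and HERC6 the values were 0.43 and 0.43 in MIR210-KO. In MIR210HG-KO the HERC5 value was 0.30 ± 0.10 (adjusted p = 0.0242) and the HERC6 value 0.44 ± 0.13 (adjusted p = 0.0146). HERC5 was lost without any 1 of normoxia WT 1, 3 or 4, normoxia MIR210HG-KO 1 or 2, hypoxia WT 2 or 4, hypoxia MIR210HG-KO 1 or 2 (log2 values 0.24 to 0.30, adjusted p 0.0501 to 0.077), and was 0.47 (adjusted p = 0.000139) without the 4 libraries that stood apart. HERC6 was 0.33 (adjusted p = 0.0956) without them. For IFI44L, IFIT1, STAT2, DDX58, IRF9 and EPSTI1 the libraries whose removal ended a call are named with each gene. Without these 4 libraries the counts were 8 higher and 3 lower for MIR210-KO and 5 and 2 for MIR210HG-KO.

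**Figure D3:**
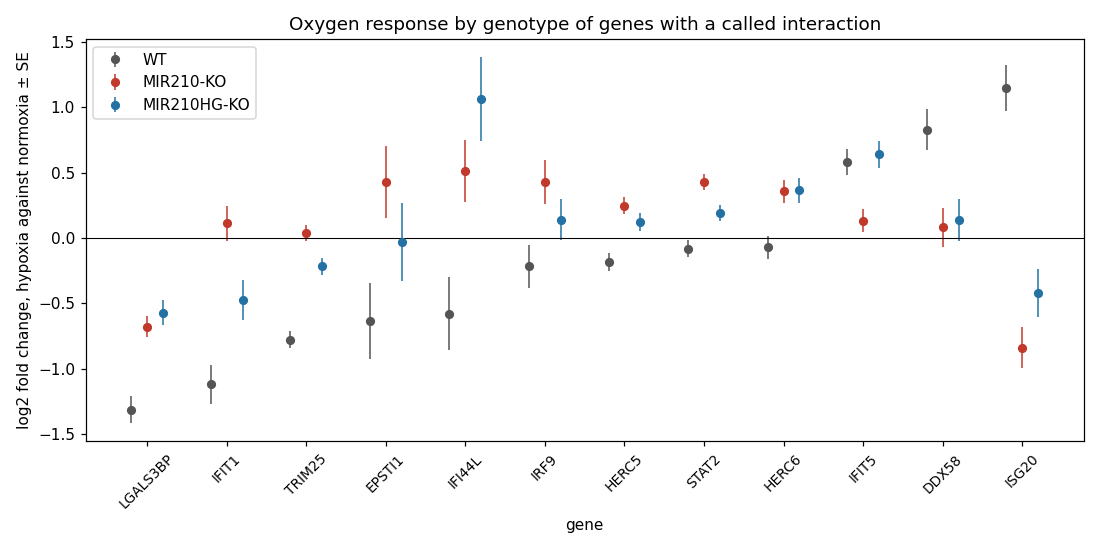
Log2 fold change of hypoxia against normoxia, with standard error bars, in each genotype, for the 12 genes whose response differed from that of WT in at least 1 knockout. ISG20 rises in WT by 1.15 and falls in MIR210-KO, while IFIT1 and TRIM25 fall in WT and lie near 0 in MIR210-KO.

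Tested genes with and without the ISRE core in their promoter were set side by side. Of the 20 with it, 17 had a higher level in MIR210-KO than in WT under normoxia and 16 under hypoxia, with medians of 1.22 and 1.42. Without IFIH1 and IFIT3, which both hold the core, 15 of 18 were higher at each level, with medians of 1.07 and 1.42. Of the 9 genes without the core, 5 (55.6%) and 7 (77.8%) were higher, with medians of 0.47 and 0.69. TRIM25 is among those with no match in this window. Genes outside the interferon lists that hold the core were counted too, and in normoxia 28.8% of 444 such genes were higher in MIR210-KO and 22.5% lower, beside 26.5% and 24.5% of all 12134 tested genes with a promoter. In hypoxia 34.2% of the 444 were higher in MIR210-KO and 29.5% lower, beside 30.1% and 32.7% of the 12134. Of 27 genes outside the interferon lists with the longer form, 33.3% were higher and 11.1% lower in normoxia. In hypoxia 37% of the 27 were higher and 18.5% lower. In MIR210HG-KO against MIR210-KO, 40.7% of these 27 were lower in normoxia and 44.4% in hypoxia, and 7.41% were higher at each level. Over all tested genes with a promoter 29.1% were lower and 28.1% higher in normoxia, and 31.5% and 30.7% in hypoxia. No test was made of these shares.

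The genes around each member were compared in the same way. The median log2 value of the tested genes within 2 Mb of each member, leaving out the interferon lists, ran from -0.67 to 0.46 in MIR210-KO against WT in normoxia and from -0.73 to 0.58 in hypoxia. It lay farther than 0.5 from 0 for 6 and 4 of the 34 genes. For IFITM2, on the chromosome arm of MIR210HG, the neighbours' median was -0.67 in normoxia and -0.42 in hypoxia, while IFITM2 itself was at 1.23 and 1.38. UBE2L6, with neighbours at -0.59 and -0.73, was likewise higher. For IRF7 the neighbours' median in normoxia was -0.66, close to its own -0.68. BST2 had neighbours at -0.03 in normoxia. Called genes could also lie close to their neighbours. In normoxia 3 of the 25 called genes were within 0.25 of the neighbours' median, namely HERC6, STAT2 and IFIT1, which was at 0.41 with neighbours at 0.43. In hypoxia 1 of 25 was, STAT2. IFIT3 in hypoxia, not called, was at 0.78 with neighbours at 0.58. What part neighbours have in any value was not tested.

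**Figure D4:**
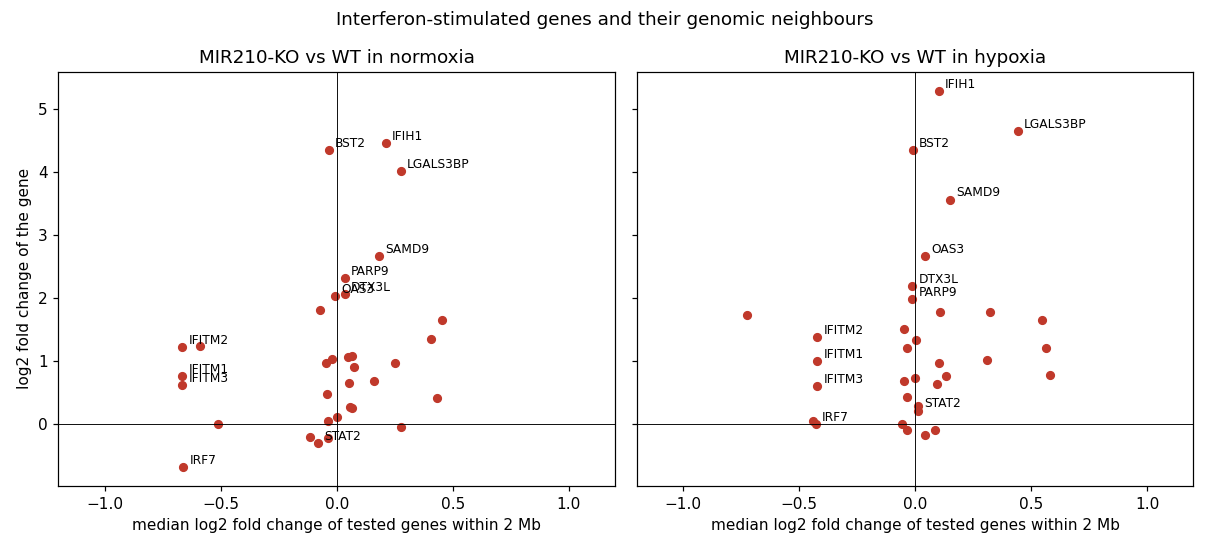
Log2 fold change of each of the 34 genes in MIR210-KO against WT (vertical axis) beside the median log2 fold change of the tested genes within 2 Mb that are in no interferon list (horizontal axis), in normoxia and in hypoxia. Neighbour medians stay between -0.73 and 0.58, while BST2, LGALS3BP and IFIH1 lie above 4.

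Signals above these genes in the pathway were looked at with a list of 36 ligands, receptors, kinases, adaptors and regulators, of which 24 could be tested. Of the interferon genes on it, 8 were at or near 0, with 1 count of IFNB1, 5 of IFNA1, 12 of IFNA2, 0 of IFNG, 4 of IFNK, 8 of IFNL1, 3 of IFNL2 and 0 of IFNL3 over all 24 libraries. The exception was IFNE, a type I interferon known from the epithelium of the reproductive tract, which was too low to test, with 124 counts. IFNE in normoxia was at 0.169, 0.0401, 0.0774 and 0 CPM in WT, 0.318, 0.323, 0.0835 and 0.16 in MIR210-KO and 0.116, 0.115, 0.298 and 0.041 in MIR210HG-KO. In hypoxia IFNE was at 0.0900, 0.0501, 0.0548 and 0 CPM in WT, 0.256, 0.493, 0.532 and 0.409 in MIR210-KO and 0.166, 0.035, 0.0537 and 0.178 in MIR210HG-KO. All hypoxia MIR210-KO libraries lay above all other hypoxia libraries, and in normoxia the groups overlapped. TLR3, an endosomal sensor of double-stranded RNA, was too low to test as well. Over 4 libraries TLR3 had 7 counts in WT, 18 in MIR210-KO and 1 in MIR210HG-KO in normoxia, and 8, 33 and 2 in hypoxia. MB21D1, which encodes the DNA sensor cGAS, had 8, 18 and 7 counts in normoxia and 12, 5 and 23 in hypoxia, and ZBP1 had 3 over all libraries.

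Of the 24 tested signalling genes, 10 were higher in MIR210-KO than in WT and 2 lower in normoxia (41.7% and 8.33%, background 22.6% and 21.6%). In hypoxia 6 were higher and 3 lower (25% and 12.5%, background 28.2% and 27.7%), with medians of 0.07 and 0.08. IKBKE, a kinase that activates IRF3, was higher by 1.96 ± 0.16 (adjusted p = 5.33e-12) and 2.39 ± 0.17 (adjusted p = 1.99e-13), and the MIR210HG-KO values against WT were -2.34 ± 0.23 (adjusted p = 5.92e-10) and -1.73 ± 0.26 (adjusted p = 8.91e-07). TMEM173, which encodes the adaptor STING, was higher in MIR210-KO by 0.72 and 1.28. IRF5, a transcription factor with few counts that failed the filter when either knockout was left out, was at 1.37 ± 0.56 in MIR210-KO and 1.47 ± 0.56 in MIR210HG-KO against WT in normoxia, and at -0.85 in MIR210-KO in hypoxia. The counts of the signalling list were not made without IRF5. MAVS, the adaptor of RIG-I and MDA5, was lower in MIR210-KO (-0.49 and -0.26). TICAM1 (0.45) and IRF2 (0.44) were higher in MIR210-KO in normoxia, and in hypoxia SOCS3 was higher (0.62) and the receptor chain IFNGR1 lower (-0.62).

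In MIR210HG-KO against WT the signalling list gave 9 higher and 3 lower in normoxia (37.5% and 12.5%, background 15.6% and 19.6%). In hypoxia it gave 8 and 8, 33.3% each, beside a background of 24.4% higher and 30.2% lower. The receptor chain IFNAR1 was higher at both levels (0.65 and 0.76), and IRF2 was lower in hypoxia (-0.91). Against MIR210-KO 5 were higher and 6 lower in normoxia (20.8% and 25%, background 23.4% and 25.8%) and 7 and 7 in hypoxia (29.2% each, background 26% and 29%). There IKBKE was at -4.30 and -4.12, TICAM1 at -0.78 and TMEM173 at -0.75 in normoxia, and SOCS3 at -1.36 and IRF2 at -0.95 in hypoxia. With hypoxia the list gave 7 higher and 11 lower in WT (29.2% and 45.8%, background 29.6% and 30.7%), led by IKBKE (-1.27), SOCS1 (-1.24) and IRF2 (0.90). It gave 5 and 8 in MIR210-KO (20.8% and 33.3%, background 29.3% and 29.5%), led by IRF5 (-1.43), SOCS3 (1.29) and TICAM1 (-1.01). In MIR210HG-KO it gave 3 and 6 (12.5% and 25%, background 25.7% and 28.3%), led by IRF5 (-1.25), TICAM1 (-0.88) and TYK2 (-0.60). Interactions numbered 2 higher and 3 lower for MIR210-KO (8.33% and 12.5%, background 12.5% and 14%), with IRF5 (-2.22), IFNGR1 (-0.59) and TMEM173 (0.56) the largest. For MIR210HG-KO they numbered 2 and 5 (8.33% and 20.8%, background 10.2% and 12.2%), with SOCS3 (-0.84), TMEM173 (0.72) and IRF2 (-0.71) the largest.

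A second list held 40 other genes known to respond to interferon, 25 of them tested. Of those too low, GBP1 had 119 counts, IFI16 25, CXCL10 17, MX2 14 and RSAD2 9 over all libraries. OASL had 14 counts in WT, 29 in MIR210-KO and 19 in MIR210HG-KO in normoxia, and 13, 46 and 9 in hypoxia. SAMD9L had 1, 11 and 1 in normoxia and 0, 33 and 5 in hypoxia, and CCL5 had 4, 10 and 14, and 15, 45 and 14. In MIR210-KO against WT 11 of the 25 were higher and 4 lower in normoxia (44% and 16%, background 22.6% and 21.6%), and 12 higher and 4 lower in hypoxia (48% and 16%, background 28.2% and 27.7%). PHF11, which passed the filter only through MIR210-KO, was higher by 2.87 and 2.49, and NLRC5, which drives antigen presentation genes, by 1.85 and 2.44. NMI (1.28), LAMP3 (1.22) and DDX60 (0.85) were higher in normoxia, and RNF213 (1.00) in hypoxia. SP140L, which passed only through WT, was lower (-1.73 and -3.74), as was TRIM5, a capsid-binding restriction factor, in hypoxia (-1.39). The presence of PHF11 and SP140L among the tested genes is not independent of these differences. The counts of this list, here and below, were not made without them. In MIR210HG-KO against WT 1 was higher and 9 lower in normoxia (4% and 36%, background 15.6% and 19.6%), and 8 and 8 in hypoxia (32% each, background 24.4% and 30.2%). SP140L was lower at both levels (-3.13 and -4.13), NLRC5 (-1.33) and DDX60 (-1.13) in normoxia, and TRIM5 (-1.83) and SLFN5 (-1.59) in hypoxia. Against MIR210-KO 4 were higher and 14 lower at each level (16% and 56%, background 23.4% and 25.8% in normoxia, 26% and 29% in hypoxia), with PHF11 (-3.76 and -3.47), NLRC5 (-3.17 and -3.43) and DDX60 (-1.98 and -1.93) the largest.

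With hypoxia this second list gave 6 higher and 10 lower in WT (24% and 40%, background 29.6% and 30.7%), led by TRIM22, which passed the filter only through WT (2.22), SLFN5 (1.67) and NLRC5 (-1.51). In MIR210-KO it gave 6 and 12 (24% and 48%, background 29.3% and 29.5%), led by TRIM22 (2.44), GBP2 (1.21) and SLFN5 (1.10). In MIR210HG-KO it gave 3 and 10 (12% and 40%, background 25.7% and 28.3%), led by NLRC5 (-1.17), LY6E (-1.10) and SLFN5 (0.92). Interactions numbered 6 higher and 3 lower for MIR210-KO (24% and 12%, background 12.5% and 14%), with SP140L (-2.02), TRIM5 (-1.29) and SLFN5 (-0.58) the largest. For MIR210HG-KO they numbered 6 and 2 (24% and 8%, background 10.2% and 12.2%), with TRIM5 (-1.18), SLFN5 (-0.75) and ZC3HAV1 (0.72) the largest.

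Markers of other cells were measured in the same libraries. Immune cells are rich in interferon-stimulated genes, and several of their markers were measured. PTPRC had 22 counts, CD3E 3, MS4A1 2, LYZ 40 and FCGR3A 5 over all 24 libraries, and 3 of the 9 on the list could be tested. CD14 lay between 0.148 and 1.42 CPM and NKG7 between 0.0384 and 1.56. Kidney and HEK lineage markers summed to 149 to 157 CPM in normoxia WT and 151 to 159.7 in MIR210-KO, and to 86.6 to 110.2 in MIR210HG-KO, with 6 of the 8 on that list tested. In hypoxia these sums were 128 to 141 in WT, 150.2 to 152 in MIR210-KO and 89.2 to 101 in MIR210HG-KO. The sum of the 6 neuronal markers, which HEK cells are known to express, was ordered like many of the interferon genes in normoxia. It was 339 to 358 CPM in normoxia WT, 521 to 552 in MIR210-KO and 158 to 164 in MIR210HG-KO. NEFL and NEFM held most of the counts of this list, 123333 and 112561 over all 24 libraries. Single markers were not compared between groups. In hypoxia these neuronal sums were 564 to 678 in WT, 654 to 705 in MIR210-KO and 208 to 228 in MIR210HG-KO. Fibroblast markers, 4 of 5 tested, summed to 42.3 to 45.8 CPM in normoxia WT, 33.2 to 38.3 in MIR210-KO and 30.9 to 39.6 in MIR210HG-KO. In hypoxia the fibroblast sums were 24.8 to 27.9 in WT, 36.5 to 38.1 in MIR210-KO and 26.4 to 28.7 in MIR210HG-KO. The MIR210-KO sum was thus above the other groups in hypoxia and below WT in normoxia. Most fibroblast counts were those of COL1A1 (17203). Endothelial markers, 1 of 4 tested, summed to 0.192 to 0.775 CPM in all libraries. The part of these markers in the results was not tested.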

How the data were processed

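Messenger RNA was sequenced from 24 libraries, 4 in each of 6 groups given by the sample titles. The authors deposited raw read counts per gene in 1 table per oxygen level, with gene length, position and symbol beside the counts (per the file headers). The submitters' processing notes name STAR 2.6.1d, featureCounts 1.5.0-p3, DESeq2 1.20.0, edgeR 3.24.3 and the GRCh38 build, without their roles; the strand setting and annotation release are not given in the sources used here.

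Counts of the 24 libraries were joined and filtered with filterByExpr of edgeR 4.0.16 (R 4.3.3) over the 6 groups, which kept 19952 genes. They were scaled with TMM factors and fitted with 1 quasi-likelihood model of group means. The 11 comparisons (6 between genotypes, 3 between oxygen levels, 2 interactions) were tested with two-sided F tests. Adjusted p-values are Benjamini-Hochberg over all tested genes, with calls at 0.05. CPM are TMM-scaled. RPKM divides CPM by the gene length that the authors deposited. The standard error of a log2 value is its size over the square root of F. Depth was 25556776 to 37858947 counts per library, and intervals and floors hold counting error alone. The fits were tested on simulated data.

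The members and lists were chosen with earlier results of these data known. Values in every library are given for the called genes with the largest differences (up to 8 per comparison of genotypes and up to 5 per other comparison), for the genes near MIR210HG and for the pathway's transcription factors. Of the other lists, up to 6 called genes per comparison of MIR210-KO with WT and up to 3 in the others are named. Of 34 tested genes, 17 overlap another gene, 14 of them on the opposite strand, and for 12 the overlapping genes hold more than 10% as many counts, which makes these counts uncertain; BST2, LGALS3BP, IFIH1 and SAMD9 overlap none. Of the signalling, second interferon and immune cell lists, 1 tested gene each is not reported here, nor is the summed level of the immune list. Alternatives were DESeq2 1.42.0, RLE factors, other filters, part of the libraries, a replicate block and leaving out libraries.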

Additional observations from a re-analysis of the deposited data

Results flagged for a closer look

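Over the 34 tested genes and 6 groups, 204 sets of 4 libraries were checked for a library far from the other 3, and 9 held one, where chance gives about 10.2 (1 in 20). IFITM3 was low in hypoxia MIR210-KO 2, at 1.17 CPM against 1.89 to 1.94 in the others. ISG20 was low in hypoxia WT 2, at 3.38 CPM against 4.00 to 4.04 in the others. ISG20 was high in hypoxia MIR210-KO 1, at 4.56 CPM against 2.93 to 3.12 in the others. IRF9 was high in hypoxia WT 2, at 2.20 CPM against 1.56 to 1.65 in the others. DDX58 was low in normoxia MIR210HG-KO 1, at 1.62 CPM against 2.66 to 2.80 in the others. DHX58 was high in normoxia MIR210HG-KO 1, at 0.810 CPM against 0.485 to 0.538 in the others. HERC6 was high in normoxia WT 2, at 7.99 CPM against 7.23 to 7.28 in the others. SAMD9 was high in hypoxia MIR210HG-KO 2, at 1.05 CPM against 0.497 to 0.569 in the others. SP110 was high in normoxia MIR210HG-KO 4, at 0.0410 CPM against 0 to 0 in the others.

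The response to hypoxia differed between a knockout and WT, by the interaction term at an adjusted p under 0.05 (edgeR), in 12 genes for MIR210-KO and 9 for MIR210HG-KO. For MIR210-KO 26.5% of the tested genes of the set were higher and 8.82% lower, beside 12.5% and 14% over all tested genes. For MIR210HG-KO the shares were 20.6% and 5.88%, beside 10.2% and 12.2%. As log2 values, the response in MIR210-KO was higher than in WT for IFI44L (1.09), IFIT1 (1.23), STAT2 (0.51), IRF9 (0.65), HERC5 (0.43), HERC6 (0.43), TRIM25 (0.82), LGALS3BP (0.64) and EPSTI1 (1.06), and lower for IFIT5 (-0.45), ISG20 (-1.99) and DDX58 (-0.75). In MIR210HG-KO it was higher for IFI44L (1.64), IFIT1 (0.64), STAT2 (0.27), HERC5 (0.30), HERC6 (0.44), TRIM25 (0.56) and LGALS3BP (0.74), and lower for ISG20 (-1.57) and DDX58 (-0.69). Both tests share the WT libraries, and several of these calls, IRF9, EPSTI1 and HERC5 among them, were lost when a single library was left out, as given above.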

How the results depend on the processing

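In each of the 11 comparisons the number of genes called stayed within 1.5 times its value under every alternative tried. Leaving out 1 library gave 24 to 25 called genes for MIR210-KO against WT in normoxia and 22 to 26 in hypoxia, 10 to 14 and 15 to 19 for MIR210HG-KO against WT, and 24 to 26 at each level for MIR210HG-KO against MIR210-KO. For hypoxia against normoxia it gave 14 to 17 in WT, 12 to 15 in MIR210-KO and 14 to 19 in MIR210HG-KO, and for the interactions 9 to 12 and 7 to 10. Of the values per gene and comparison, DESeq2 ended 2 calls and made 6, RLE factors 4 and 2, no low-count filter 19 and 4, a fit to only the groups compared 10 and 7, and at least 1 CPM in at least 4 libraries 0 and 3. Calls of genes that a setting left untested are not counted as ended. The filter at 1 CPM left 2 genes of the set untested, and a fit to only the groups compared left up to 4. Leaving out the 4 libraries that stood apart ended 14 and made 15, and made 1 more, that of IRF7 between MIR210HG-KO and WT in hypoxia. This IRF7 value was 0.00 and not called with them, and -0.67 (adjusted p = 0.0173) without them. The cause was not tested. Same-numbered libraries were not treated as paired in the main fit, and the labels do not say whether they were handled together. Over 60 pairs the correlation of their deviations ran from -0.11 to 0.12, and 5 of 24 libraries correlated best with their own number. These values cannot settle whether libraries were paired. The replicate block gave 25 called genes for MIR210-KO against WT at each oxygen level and 16 for hypoxia against normoxia in WT. It ended the calls of OAS3 (hypoxia against normoxia in WT) and of IRF9 and EPSTI1 (interaction for MIR210-KO). Depth limits the 8 genes too low to test and those with few counts, such as SP110 in MIR210HG-KO.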

Other observations

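SP110 belongs to a family of nuclear body genes that lie side by side on chromosome 2, and the other members were measured too. These genes were chosen after the SP110 values were seen. SP100, also in the set of 42 genes, had 12 counts in normoxia in WT (4 libraries summed), 11 with MIR210 deleted and 0 with MIR210HG deleted, and in hypoxia 22, 34 and 10. SP140L had 68, 19 and 7 counts in normoxia and 169, 11 and 8 in hypoxia, in the same order of genotypes. SP140 had 1, 4 and 0 counts in normoxia and 3, 3 and 0 in hypoxia. SP110 overlaps SP140, which is read on the opposite strand. So SP110 and SP140L were low in MIR210HG-KO, and in MIR210-KO SP140L was low while SP110 was not. The median log2 value of the tested genes within 2 Mb of SP110 was 0.02 in MIR210HG-KO against WT in normoxia.

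MX1, which encodes a GTPase that blocks influenza virus, was too low to test. It had 0 counts in normoxia WT and 1 in hypoxia WT, 6 and 21 in MIR210-KO, and 10 and 8 in MIR210HG-KO.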
